A study of Mus musculus with 10 samples.

Results

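The mitosis and kinetochore genes described here are 37 genes of the late cell cycle, chosen by gene symbol from a list of named members, among the 17919 genes of the deposited RNA-seq and polysome-seq tables. All 37 were found in all 6 libraries used. The cells were neural stem cells grown from ventral midbrain tissue of embryonic day 10 mice of the ICR strain. They had received either a lentivirus that expresses Lin28a, an RNA-binding protein of early progenitors, or a mock control virus, and were passaged every 4 days. Whole-cell RNA was sequenced from the control and the Lin28a culture at passage 1 (P1) and at passage 3 (P3), and RNA from fractions of a sucrose gradient was sequenced from both cultures at P3 (polysome-seq, which reads the messages that sediment with ribosomes). Each of these 6 groups has 1 library, so no test was possible, and every difference below has no replicate check. The labels name neither the promoter of the Lin28a virus, nor the share of cells that carried it, nor the gradient fractions that were pooled.

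The members act at the end of the cell cycle. Cdk1 bound to a B-type cyclin starts mitosis, Plk1 and the Aurora kinases build the spindle, kinetochores tie the chromosomes to it, and the spindle checkpoint holds the anaphase-promoting complex until every chromosome is attached. The genes are transcribed together in G2 and mitosis, through CCAAT boxes bound by NF-Y and through the cell cycle genes homology region (CHR). The CHR recruits the DREAM and MuvB complexes and, through MuvB, Foxm1. In the embryonic midbrain these genes mark dividing progenitors. In bulk RNA, fewer dividing cells and less RNA in each dividing cell cannot be told apart.

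The libraries were first checked against their labels. Lin28a itself stood at 0.128 FPKM (fragments scaled to transcript length and library size) in the P1 control and 0.062 in the P3 control, against 478 and 104 in the P1 and P3 Lin28a cultures. In polysome-seq it was at the lowest value of the table in the control and at 17.9 RPKM (the same scaling applied to reads) in the Lin28a culture. All 11 neural stem cell markers were at 1 or more in each of the 6 libraries, and Sox2, a stem cell transcription factor, was at 262 and 390 FPKM in the P1 and P3 controls and at 260 and 372 in the P1 and P3 Lin28a cultures. Nes, nestin of progenitors, went the other way with passage, at 88.2 and 38.6 FPKM in the controls and 93.9 and 53.0 with Lin28a, as did Prom1 (111, 21.6, 90.2 and 39.6) and Msi1 (129, 72.4, 143 and 97.7), so these 3 markers, named after their values were seen, were lower at P3 and higher with Lin28a at P3, as most members were. The other 8 stem cell markers were higher at P3 than at P1 in both cultures. Of 10 ventral midbrain markers, 6 to 8 reached 1 in a library, and their summed level was 287 and 66.8 FPKM in the P1 and P3 controls and 290 and 111 with Lin28a. The summed level of 7 astrocyte markers was 178 and 3913 FPKM in the P1 and P3 controls and 132 and 1660 in the P1 and P3 Lin28a cultures, and that of 11 oligodendrocyte markers was 186, 2101, 112 and 1290 in the same order. Neuron markers went the other way, with sums of 1106, 283, 935 and 484 over 11 genes. None of 7 microglia markers reached 1 in any library. Stem cell, ventral midbrain, glial and neuronal markers therefore differed between the same libraries as the members, and their part in the results below was not tested.

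The promoters of the members were examined because the members moved together. RefSeq promoter sequences (build GRCm38.p6, not the build of the expression files) were found for 31 of the 37 genes, as 33 windows from 250 bases before to 50 bases after a start. Promoters of Kif20a, Aurkb, Tpx2, Ccna2, Foxm1 and Incenp were not used here. Of 11 members that hold both elements upstream of the start, the 6 with the largest P1 control level are shown over the 200 bases before the start, 5′ to 3′ on the strand of the gene. Capitals mark CCAAT (or ATTGG, the same box on the other strand) and CHR letters (TTTGAA or TTCGAA, or TTCAAA on the other strand). The windows are Top2a at chr11:99024190-99024389 on the minus strand, Cdc20 at chr4:118437344-118437543 (minus), Prc1 at chr7:80294276-80294475 (plus), Cdk1 at chr10:69352913-69353112 (minus), Ccnb2 at chr9:70421555-70421754 (minus) and Mki67 at chr7:135716380-135716579 (minus).
Top2a: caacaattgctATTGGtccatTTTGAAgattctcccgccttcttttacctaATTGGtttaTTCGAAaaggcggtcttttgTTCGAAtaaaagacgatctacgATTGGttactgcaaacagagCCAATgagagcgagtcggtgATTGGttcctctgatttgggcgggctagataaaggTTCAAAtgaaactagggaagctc
Cdc20: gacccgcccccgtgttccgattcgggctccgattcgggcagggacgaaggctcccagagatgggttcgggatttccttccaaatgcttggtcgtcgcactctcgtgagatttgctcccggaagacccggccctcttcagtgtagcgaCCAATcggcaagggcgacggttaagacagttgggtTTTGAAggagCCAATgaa
Prc1: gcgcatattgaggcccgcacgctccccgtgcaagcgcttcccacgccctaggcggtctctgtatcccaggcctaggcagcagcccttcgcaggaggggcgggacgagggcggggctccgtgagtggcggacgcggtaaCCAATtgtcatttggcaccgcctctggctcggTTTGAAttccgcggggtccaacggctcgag
Cdk1: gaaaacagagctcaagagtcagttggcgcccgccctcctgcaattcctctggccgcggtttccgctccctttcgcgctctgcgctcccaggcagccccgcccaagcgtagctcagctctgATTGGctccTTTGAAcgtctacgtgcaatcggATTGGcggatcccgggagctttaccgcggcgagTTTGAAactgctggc
Ccnb2: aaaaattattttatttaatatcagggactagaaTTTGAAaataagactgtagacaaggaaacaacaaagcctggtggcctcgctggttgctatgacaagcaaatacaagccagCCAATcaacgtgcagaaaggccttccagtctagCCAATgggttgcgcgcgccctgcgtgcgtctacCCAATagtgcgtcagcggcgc
Mki67: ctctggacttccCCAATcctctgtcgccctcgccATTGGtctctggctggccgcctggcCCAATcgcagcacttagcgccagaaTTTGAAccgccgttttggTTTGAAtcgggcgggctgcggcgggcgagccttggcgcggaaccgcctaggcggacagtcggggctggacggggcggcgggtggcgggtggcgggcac
The Top2a window holds 5 CCAAT boxes and 4 CHR matches, and the Prc1 window holds 1 of each. A CCAAT box was found in 75.8% of the members' windows and in 37.4% of all 32851 promoter windows of the same length. CHR letters were found in 78.8% of the members' windows and in 19.2% of all windows, and both together in 69.7% against 7.52%. Among windows of genes that reached 1 FPKM, both elements were found in 5.44%. A set of E2F letters (TTTGGCGC, TTTGCCGC, TTTCGCGC or TTTCCCGC on either strand) was found in 3.03% of the members' windows, those of Cdk1, and in 2.26% of all windows. Other mitotic lists shared these letters: CCAAT with CHR was found in 50.0% of 10 windows of other mitotic kinesins, in 41.9% of 31 windows of other mitotic regulators and in 32.4% of 34 windows of other kinetochore genes. DNA replication genes, which are transcribed earlier in the cycle, had 40 windows for 34 of 43 genes, with the E2F letters in 32.5%, CHR letters in 22.5% and CCAAT with CHR in 12.5%. A CCAAT box can share 1 end letter with a CHR, and no match of one was counted as another. A match is a description of the sequence, not a bound site. The 21 members with both elements and the 10 with a window but without both had similar medians: -0.81 and -0.66 on the log2 scale for P3 over P1 in the control, and 0.73 and 0.72 for Lin28a over control at P3.

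The members had a median percentile among all genes of 69.7 or more in every library, with Cenpe lowest, at 45.7 in P3 control RNA. Their summed level was 1288 FPKM in the P1 control, 793 in the P3 control, 1433 at P1 with Lin28a and 1345 at P3 with Lin28a, and the sums in polysome-seq were 898 RPKM in the control and 909 in the Lin28a culture. Top2a, the topoisomerase that untangles chromosomes, had the largest level of the members in each RNA-seq library, at 98.5 and 55.0 FPKM in the P1 and P3 controls and 108 and 93.1 in the P1 and P3 Lin28a cultures. The smallest P1 levels were those of Arhgef39, grouped here with the cytokinesis genes, at 8.52 FPKM in the control and 7.68 with Lin28a. In polysome-seq the order differed: Cenpa, the histone H3 variant of centromeres, led with 75.4 RPKM in the control and 75.5 with Lin28a, and Ndc80, the microtubule-binding kinetochore subunit, was lowest with 6.9 and 7.48. Of the 4 RNA-seq libraries the P3 control was the lowest for 36 of 37 members, the exception being Arhgef39, lowest in P1 Lin28a. The highest library was P1 Lin28a for 26 members and P3 Lin28a for 11. Counts of the lowest and highest library were not made over all genes.

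**Figure D1:**
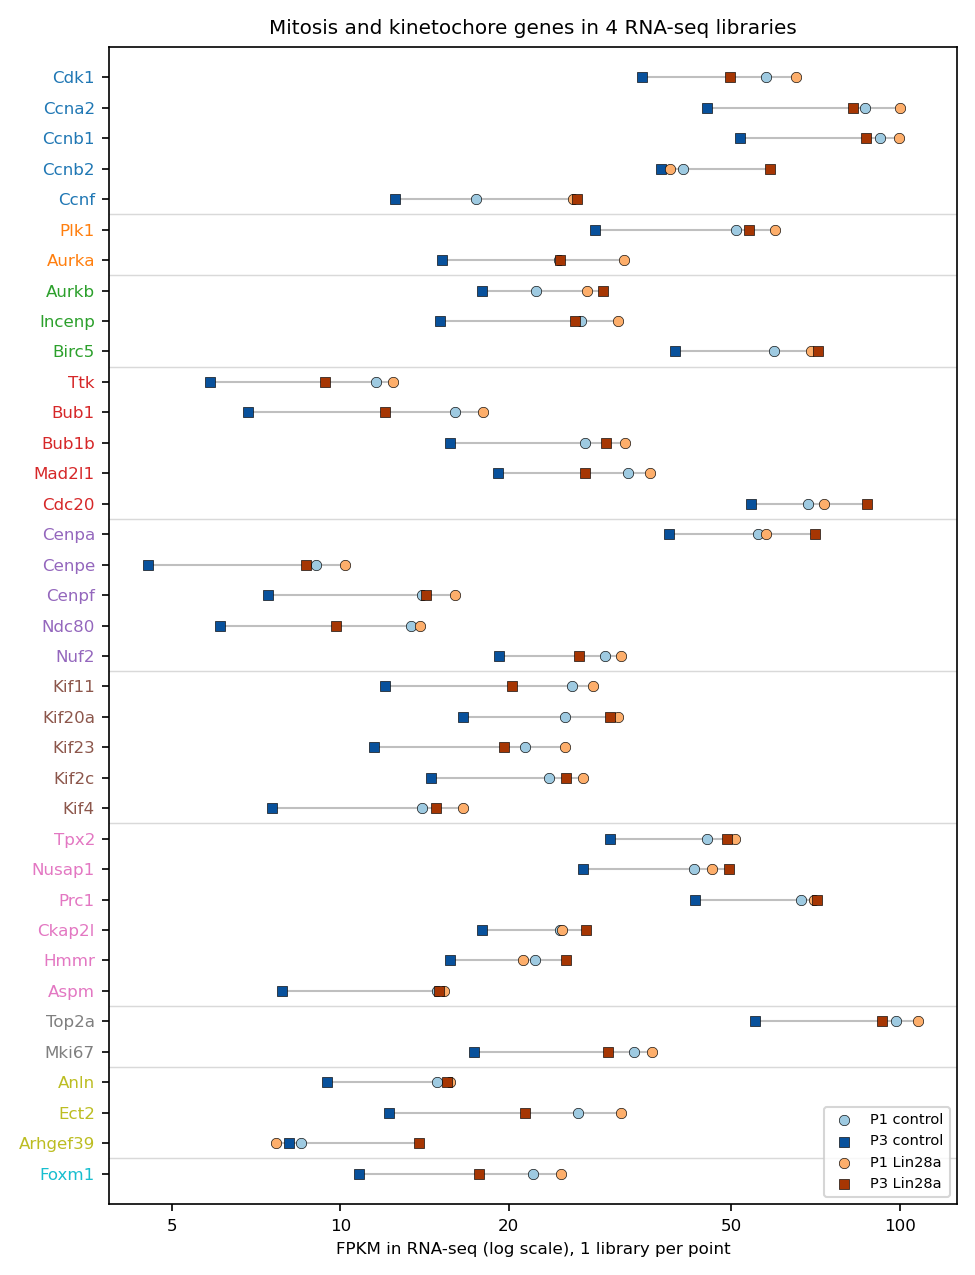
Level of each of the 37 members (rows, grouped and coloured by role) in the 4 RNA-seq libraries, in FPKM on a log axis, 1 point per library: circles for P1, squares for P3, blue for control and orange for Lin28a, with a grey line over each gene's range. The P3 control (dark blue square) is the leftmost point for 36 of 37 members, the exception being Arhgef39.

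The first comparison asked what passage did to the control culture. All 37 members were lower at P3 than at P1 in the control RNA, with a median log2 ratio of -0.75, a median fold of 0.596, while the median of all 13011 genes compared was 0.00 to the nearest hundredth. Ratios here and below are of value + 1, which understates the change of low genes. Of all genes, 50.3% were lower by any amount. Past 1.5-fold, 26 of the 37 members were lower, against 19.8% of all genes, and past 2-fold 4 members were lower (Bub1, Ect2, Kif11 and Ndc80), against 8.14% of all genes. The members thus shifted as a group by a moderate amount, and few of them by a large one.

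Among the kinases and cyclins, Cdk1, the mitotic kinase, went from 57.6 to 34.6 FPKM in the control. Its partner cyclin B1 (Ccnb1) went from 92.2 to 51.9 FPKM and cyclin A2 (Ccna2) from 86.5 to 45.3, log2 ratios of -0.82 and -0.92. Cyclin B2 (Ccnb2), which serves the same kinase, stayed close to its start, at 40.9 and 37.5 FPKM (log2 ratio -0.12). The B-type cyclins thus differed from each other. Ccnb1 has near-identical copies in the mouse genome, whose reads the counting may have divided, and its values are uncertain to that extent. Ccnf, an F-box cyclin, had a ratio of -0.45, Plk1 one of -0.82 and Aurka, the spindle pole kinase, one of -0.66. In the chromosomal passenger complex, which corrects faulty attachments, Incenp (-0.79) and Birc5, survivin (-0.58), were lower by more than Aurkb, its kinase (-0.31).

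Spindle checkpoint genes were spread over the range. Bub1 had the largest difference of the members, from 16.0 FPKM at P1 to 6.84 at P3, a log2 ratio of -1.12 or 0.461 times. Ttk, the Mps1 kinase, went from 11.6 to 5.84 FPKM (-0.88). Bub1b, BubR1, had a ratio of -0.77 and Mad2l1, the Mad2 protein that binds Cdc20, one of -0.75. Cdc20, the target of the checkpoint and activator of the anaphase-promoting complex, was lower by less, from 68.5 to 54.1 FPKM (-0.33).

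At the kinetochore, Ndc80 went from 13.4 to 6.09 FPKM (-1.02), and its partner Nuf2 from 29.7 to 19.2 (-0.60). Cenpe, a kinetochore motor, and Cenpf, an outer kinetochore protein, had ratios of -0.86 and -0.83, and Cenpa one of -0.52. Motors of the spindle were also lower: Kif11 (Eg5), which pushes the poles apart, went from 25.9 to 12 FPKM (-1.04), and Kif23, Kif4, Kif2c and Kif20a had ratios of -0.85, -0.81, -0.67 and -0.57. The spindle assembly proteins formed a narrower band, from -0.84 for Aspm, a spindle pole protein whose loss causes microcephaly, to -0.44 for Ckap2l, with Nusap1 (-0.65), Prc1 (-0.61), Tpx2 (-0.56) and Hmmr (-0.48) between them. The proliferation marker Mki67 went from 33.5 to 17.3 FPKM (-0.92) and Top2a had a ratio of -0.83.

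Cytokinesis genes spanned nearly the whole range. Ect2, which acts at the cleavage furrow, went from 26.6 to 12.2 FPKM (-1.06), Anln, anillin of the contractile ring, from 14.9 to 9.45 (-0.61), and Arhgef39 from 8.52 to 8.1 (-0.06). Foxm1, the forkhead factor that drives G2/M genes, went from 22.1 to 10.8 FPKM (-0.97), so this activator was lower along with the other members.

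In the Lin28a culture passage left the members nearer to their P1 levels. The median log2 ratio of P3 over P1 was -0.16 for the 37 members and -0.01 for all 12850 genes. Of the members, 26 were lower and 11 higher, while 51.0% of all genes were lower and 49.0% higher. With libraries scaled to their 75th percentile this became 29 lower and 8 higher, Ccnf, Birc5 and Prc1 having changed side. None was lower past 1.5-fold, where 14.8% of all genes were, or past 2-fold, where 4.8% were. A single member, Arhgef39, was higher past 1.5-fold, as were 18.2% of all genes.

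Bub1 was again the lowest, from 18 to 12 FPKM (-0.55), followed by Ect2 from 31.7 to 21.4 (-0.54) and Ndc80 from 13.9 to 9.81 (-0.47). Kif11 and Foxm1 each had a ratio of -0.46. These 5 genes were also the 5 lowest with passage in the control, where the differences were larger. At the other end, Arhgef39 went from 7.68 to 13.8 FPKM (0.77) and Ccnb2 from 38.8 to 58.5 (0.58). Cenpa (57.7 to 70.6 FPKM, 0.29), Cdc20 (73.2 to 87.5, 0.25) and Hmmr (21.2 to 25.3, 0.24), whose RHAMM protein helps place the spindle, were higher by less. Across the 37 members the ratios with passage in the 2 cultures, which share no library, had Pearson's r of 0.902 and a Spearman coefficient of 0.852, and across 12723 genes 0.905 and 0.897. The order of the members was therefore alike in both cultures, as was that of genes at large, and these are descriptions across genes, which are not replicates.

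The difference between both passage ratios, Lin28a minus control, was above 0 for all 37 members, against 49.6% of all 13138 genes. Its median over the members was 0.59 on the log2 scale, against 0.00 to the nearest hundredth for all genes, and 19 members passed 1.5-fold, against 6.1% of all genes. None passed 2-fold, where 1.55% of all genes did. The values ran from 0.30 for Aurka and 0.33 for Cdk1 to 0.81 for Cenpa and Aspm and 0.84 for Arhgef39. This difference uses all 4 RNA-seq libraries, so it is not independent of the comparisons beside it.

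DNA replication genes did not share this. Their median ratio with passage was -0.92 in the control and -1.09 with Lin28a, and the number lower past 2-fold was 19 of 43 in the control and 25 of 43 with Lin28a. The shares of all genes lower past 2-fold were 8.14% and 4.8%. For 33 of the 43 replication genes the ratio was lower in the Lin28a culture than in the control. This was so for 0 of the 37 mitotic members and 50.4% of all genes. Ccne2, cyclin E2 of S phase entry, had ratios of -1.60 and -2.28, Tyms, which makes thymidylate, -1.56 and -1.83, and Mcm3, of the replicative helicase, -1.55 and -1.82. Mcm2, the lowest of the list in the control, went the other way, with -1.61 and -1.55. With Lin28a at P3, 30 of 42 replication genes compared were higher and 12 lower, with a median of 0.12 and 2 past 1.5-fold. Of all genes, 48.5% were higher and 5.45% were higher past 1.5-fold, so the 2 were near that share. Mcm3 was at 11.5 FPKM in the P3 control and 12.4 with Lin28a, while Dbf4, which activates the replication kinase Cdc7, was at 10.2 and 17.3 (0.71) and Uhrf1, which keeps DNA methylation through replication, at 20.0 and 30.7 (0.59).

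**Figure D2:**
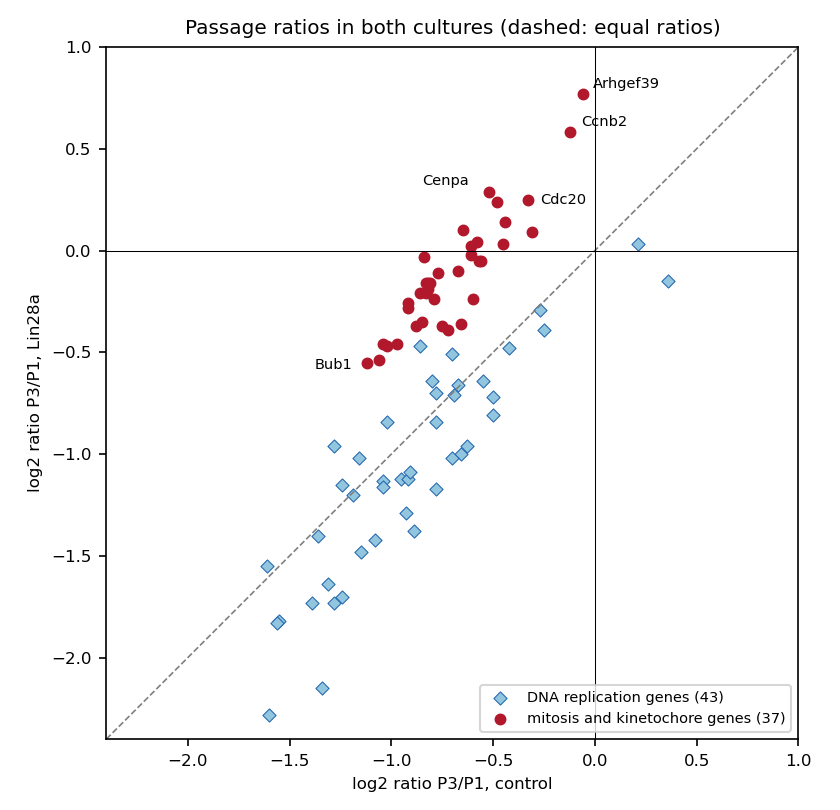
Log2 ratio of P3 over P1 in the control (x axis) and in the Lin28a culture (y axis) for the 37 members (red circles) and 43 DNA replication genes (blue diamonds), 1 library per group. All 37 members lie above the dashed line of equal ratios, while 33 of the 43 replication genes lie below it.

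The effect of the virus was then compared at each passage. At P1 the members were slightly higher with Lin28a: 34 of 37 were higher, against 48.4% of all 12564 genes, with a median log2 ratio of 0.15 against -0.01. None passed 1.5-fold or 2-fold, which 0.613% and 0.135% of all genes did. The largest value was that of Ccnf, from 17.5 FPKM in the control to 26.0 with Lin28a (0.55), then Aurka, from 24.6 to 32.1 (0.37), and Kif20a, a motor of cytokinesis, from 25.2 to 31.4 (0.30). The 3 members lower with Lin28a were Arhgef39 (-0.13), Ccnb2 (-0.07) and Hmmr (-0.07). DNA replication genes had the larger median at P1, 0.32, with 43 of 43 higher.

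At P3 all 37 members were higher in the Lin28a culture than in the control, with a median log2 ratio of 0.73, a median fold of 1.66, against -0.01 for all 12716 genes, of which 48.5% were higher. Past 1.5-fold, 34 members were higher, against 5.45% of all genes, and past 2-fold 1 member, Ccnf, against 1.31% of all genes. The 3 members short of 1.5-fold were Cdk1, Mad2l1 and Nuf2. The P3 control library is the lower arm here and the upper term of the passage ratio in the control, so a low value in that library enters both.

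Ccnf was at 12.5 FPKM in the P3 control and 26.5 with Lin28a, a log2 ratio of 1.03. Plk1, at 28.5 and 53.7 FPKM, and Bub1b, at 15.7 and 29.8, each had a ratio of 0.89. Kif4, a motor on chromosome arms, was at 7.54 and 14.8 FPKM (0.88), and Cenpf at 7.41 and 14.2 (0.86). A cyclin, a kinase, a checkpoint protein, a motor and a kinetochore protein thus stood together at the top, with folds from 1.81 for Cenpf to 2.04 for Ccnf. Ccna2, Cenpa, Nusap1 and Aspm each had a ratio of 0.85. Birc5, which was at 39.7 and 71.3 FPKM, and Kif20a had ratios of 0.83, and Cenpe one of 0.81. Kif2c, the motor that takes microtubules apart, had 0.77, Incenp, Ect2 and Mki67 0.76, and Top2a 0.75.

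The remaining members were higher by 0.46 to 0.73. Ccnb1 stood at 51.9 FPKM in the P3 control and 87.0 with Lin28a (0.73), and Bub1 at 6.84 and 12 (0.73). Kif23 had a ratio of 0.72, Kif11 and Prc1, the bundler of the spindle midzone, 0.71, and Arhgef39 0.70. Ratios of Aurkb, Cdc20 and Tpx2, the activator of Aurora A, were 0.69, 0.68 and 0.68. Aurka and Foxm1 had 0.67, Anln 0.66, Hmmr 0.65, Ccnb2 0.63, Ndc80 0.61, and Ttk and Ckap2l, a spindle protein of neural progenitors, 0.60. The smallest were Cdk1, at 34.6 and 49.8 FPKM (0.51), Mad2l1, at 19.1 and 27.4 (0.50), and Nuf2, at 19.2 and 26.7 (0.46). The spread among the members was narrow. Medians by role ran from 0.67 for the transcription factor Foxm1 to 0.81 for centromere and kinetochore genes. Across the members, the ratios at P1 and at P3, which share no library, had r of 0.458 and a Spearman coefficient of 0.467, and across 12142 genes 0.316 and 0.353.

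**Figure D3:**
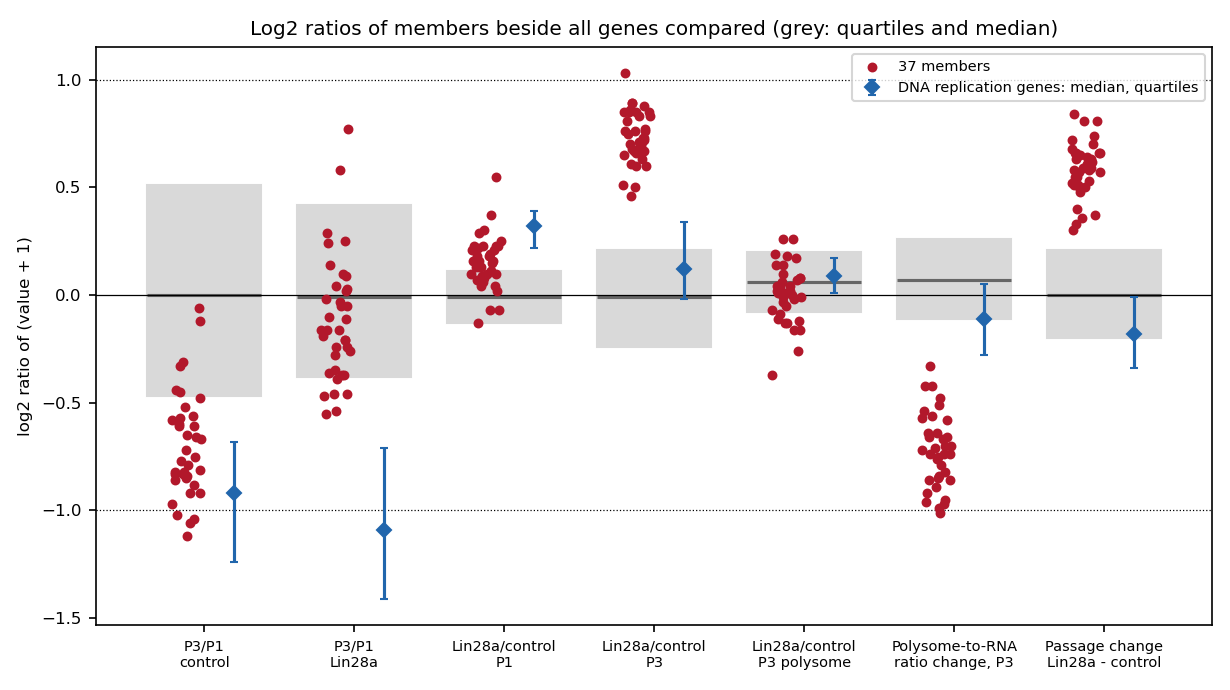
Log2 ratio of each member (red points) in 7 comparisons, beside the quartiles and median of all genes compared (grey) and those of the DNA replication genes (blue diamond with bars from the lower to the upper quartile); dotted lines mark 2-fold, and the bars are spread across genes, not replicate error. The members lie below 0 for passage in the control (median -0.75) and above 0 for Lin28a at P3 in RNA (0.73), around 0 in polysome-seq (0.01), and below 0 in the polysome to RNA change, which holds 36 members.

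The third set of comparisons asked whether the P3 difference was also present in RNA from the gradient. It was much smaller there. In polysome-seq 21 of the 37 members were higher with Lin28a and 16 lower, against 62.8% higher and 37.2% lower among all 12289 genes, and the median was 0.01 against 0.06. With the ratios centred on the median of all genes the split was 11 higher and 26 lower with a median of -0.05, so polysome-seq gave the members no direction that held under both scalings. No member was higher past 1.5-fold or 2-fold, which 3.69% and 0.952% of all genes were, and none was lower past 1.5-fold, which 1.51% were. The largest values were those of Birc5, from 49.4 to 59.4 RPKM (0.26), and Aurkb, from 14.8 to 17.9 (0.26), and the lowest was that of Ckap2l, from 34.8 to 26.7 (-0.37). Plk1 was at 22.6 and 23.7 RPKM (0.07), Bub1b at 19.1 in both libraries, Top2a at 59.1 and 60.3 (0.03), and Cenpa at 75.4 and 75.5 RPKM. For these 4 genes the polysome levels were nearly equal where the RNA levels differed by 1.6 times or more.

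The polysome log2 ratio minus the RNA log2 ratio at P3, here called the polysome to RNA change, was therefore below 0 for each of the 36 members that were at 5 or more in all 4 P3 libraries. Cenpe, at 4.53 FPKM in the P3 control, did not enter. The median was -0.73, against 0.07 for all 7817 genes, of which 39.3% were below 0. Past 1.5-fold, 27 of 36 members were lower, against 1.6% of all genes, and past 2-fold 1 member, Aspm, against 0.0512% of all genes. The P3 control RNA library enters this change as well. Over all genes the P3 ratios were narrower in polysome-seq, with quartiles of -0.08 and 0.2, than in RNA, with -0.24 and 0.21. Aspm was at 7.85 and 15.0 FPKM in RNA and at 14.8 and 13.1 RPKM in polysome-seq, a change of -1.01. Ccnf (-0.99), Ckap2l (-0.97), Arhgef39 (-0.96), Cenpf (-0.95) and Mki67 (-0.92) followed. The smallest changes were those of Cdk1 (-0.33), Aurkb (-0.42) and Mad2l1 (-0.42). Neighbouring lists also had medians below 0. Other mitotic regulators had -0.56 over 30 genes, with 11 lower past 1.5-fold, and other mitotic kinesins -0.52 over 6, with 2. Centriole duplication genes had -0.48 over 4 genes, with 1, and other kinetochore genes -0.31 over 22, with 5. Condensin and cohesin had -0.25 over 17 genes, with 4, and the anaphase-promoting complex and separase -0.07 over 17, with 0. DNA replication genes had a median of -0.11 over 31 genes, with 1 lower past 1.5-fold.

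In every member the RNA term was the larger one, as the polysome ratios lay between -0.37 and 0.26 and the RNA ratios between 0.46 and 1.03. Across the members the RNA and the polysome ratios at P3 were nearly unrelated, with r of 0.073 and a Spearman coefficient of 0.015, while across 11934 genes they had 0.522 and 0.449. Set against the RNA ratios at P1, the members' polysome ratios had r of 0.498 and a Spearman coefficient of 0.5, against 0.215 and 0.244 across 11879 genes. The labels do not say that RNA-seq and polysome-seq came from the same cultures. Levels of glial markers differed between the assays at P3: Apoe, the lipid carrier of astrocytes, was at 3154 FPKM in the control RNA and 1218 with Lin28a, against 78.9 and 53.8 RPKM in polysome-seq, and Mbp, a myelin protein, at 633 and 408 FPKM against 1.51 and 1.83 RPKM. The summed astrocyte markers were at 152 and 102 RPKM in polysome-seq with Gjb6 at the lowest value of the table, and the oligodendrocyte markers at 293 and 201 with Mog at the lowest value. The part of these differences in the polysome to RNA change was not tested.

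**Figure D4:**
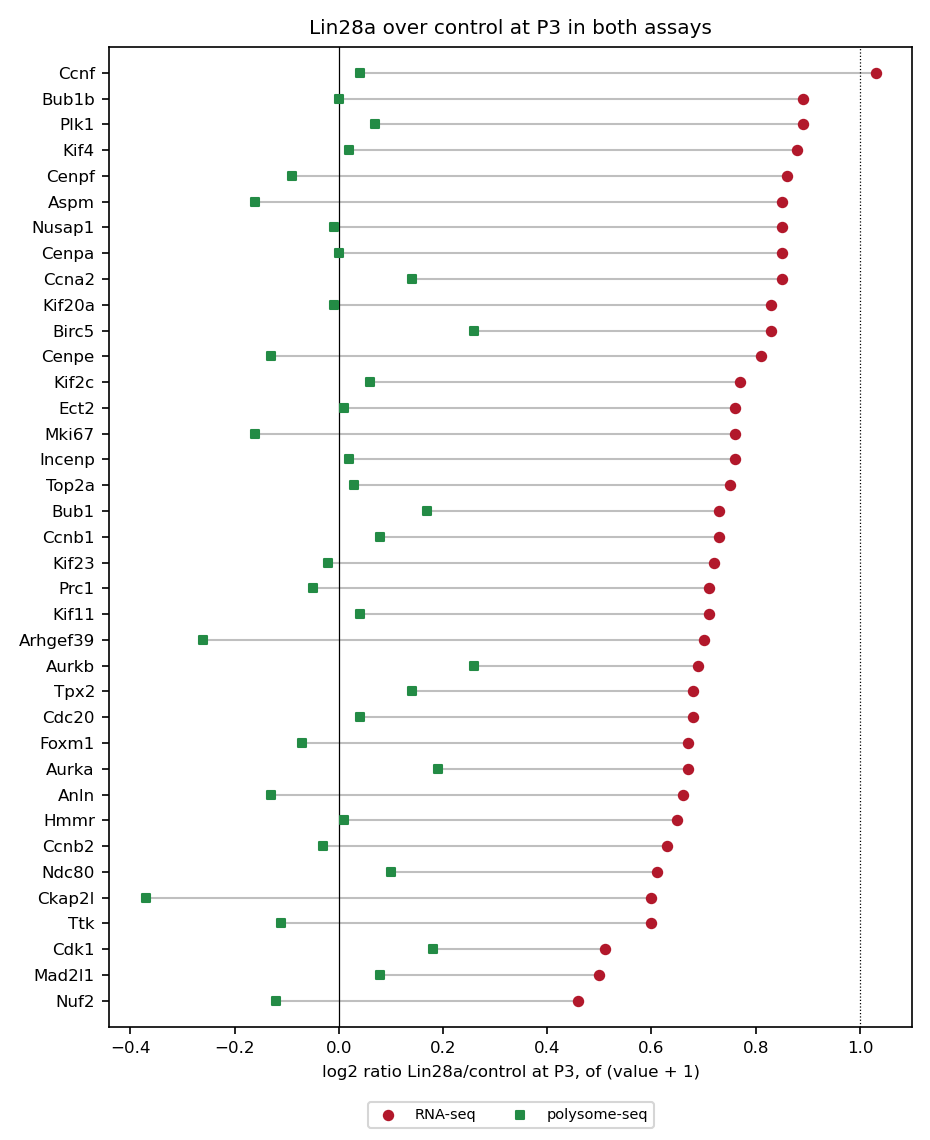
Log2 ratio of Lin28a over control at P3 for each of the 37 members in RNA-seq (red circles) and in polysome-seq (green squares), joined by a line and ordered by the RNA ratio; the dotted line marks 2-fold. The RNA ratios run from 0.46 to 1.03 and the polysome ratios from -0.37 to 0.26.

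Ranks within a library do not depend on the scale of the assay. The median percentile of the members among all genes was 80.5 in P1 control RNA and 69.7 at P3, 84.1 and 80.4 in the RNA of the Lin28a culture at P1 and P3, and 82.2 and 81.3 in the control and Lin28a polysome libraries. The P3 control RNA library held the lowest percentile for 34 of the 37 members. By rank, then, that library stood apart from the other 5, and the P3 control polysome library did not stand with it. In the control 35 members ranked higher in polysome-seq than in RNA-seq, by a median of 10.6 percentile points, and 2 ranked lower, Ccnb1 (-10.0) and Cdc20 (-2.2). With Lin28a 21 ranked higher and 16 lower, by a median of 1.7 points. None of these counts of rank was made over all genes. In the control, median percentiles also rose from RNA-seq to polysome-seq for other kinetochore genes (52.8 to 69.7) and condensin and cohesin (67.4 to 80.6). DNA replication genes rose as well (62.9 to 69.7), while the anaphase-promoting complex and separase fell (84.1 to 80.1). Foxm1, by 31.1 points, Cenpf, by 30.0, and Mki67, by 23.0, were among the members placed higher on polysomes in the control, and were also placed higher with Lin28a, by 19.2, 14.1 and 10.7 points. Ccnb1 was placed lower in both cultures, with shifts of -10.0 points in the control and -15.3 with Lin28a. Its near-identical copies make these ranks uncertain, as they do its levels.

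**Figure D5:**
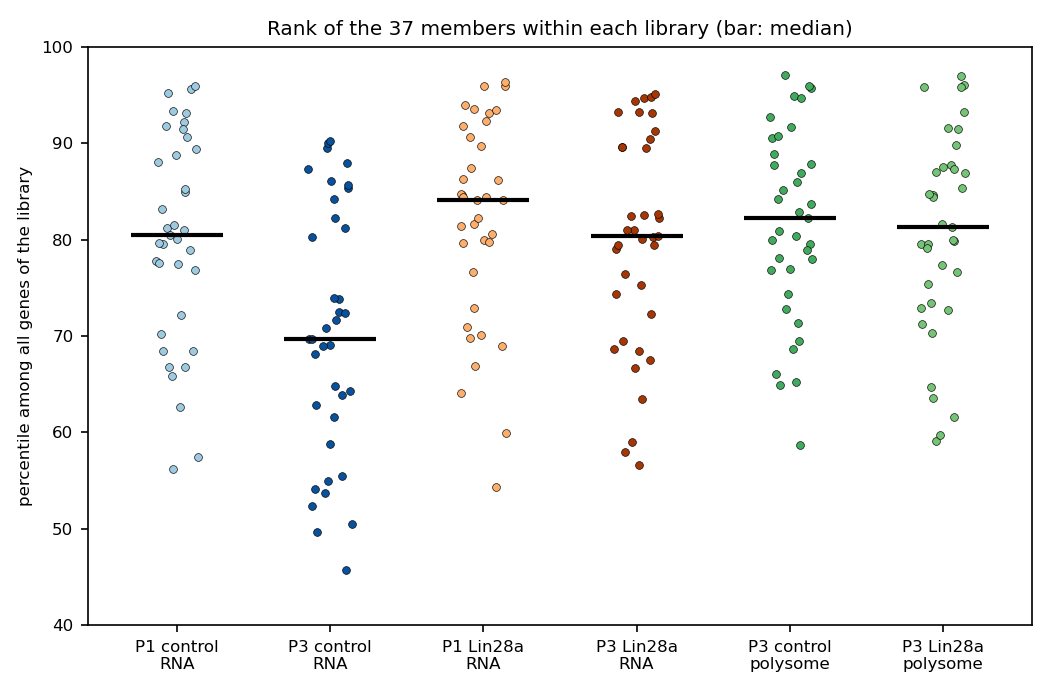
Percentile of the 37 members among all genes within each of the 6 libraries (points, 1 per member; the bar shows the median). The medians lie between 80.4 and 84.1 in 5 libraries and at 69.7 in the P3 control RNA library.

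Genes with neighbouring roles had medians of the same sign as the members in these comparisons. For Lin28a at P3 their medians were below the members' 0.73, while with passage in Lin28a each of the lists below except the anaphase-promoting complex had a lower median than the members' -0.16. Among 33 other kinetochore genes the median ratio was -0.48 with passage in the control, -0.29 with passage in Lin28a and 0.37 for Lin28a at P3, with 12 lower, 11 lower and 7 higher past 1.5-fold. The shares of all genes past 1.5-fold in these directions were 19.8%, 14.8% and 5.45%. Casc5, a kinetochore scaffold, was the highest of them with Lin28a at P3, at 2.25 and 4.84 FPKM (0.85). For 9 other mitotic kinesins the medians were -0.50, -0.18 and 0.63, with 5 of 9 higher past 1.5-fold at P3, and Kif14 led, at 2.42 and 5.37 FPKM (0.90). For 39 other mitotic regulators they were -0.62, -0.18 and 0.51, with 19 of 39 higher past 1.5-fold, among them Cdc25c, the phosphatase that turns on Cdk1, at 11.0 and 21.7 FPKM (0.92). Exceptions in that list were Psrc1, a spindle protein, and Ckap2, both higher with passage in both cultures. Psrc1 went from 20.5 to 70.4 FPKM in the control (1.73) and from 27.8 to 82.6 with Lin28a (1.54). Ckap2 went from 43.1 to 69.5 FPKM in the control and from 42.3 to 75.3 with Lin28a (0.82). Of the 39 genes, 3 were higher with passage in the control and 14 with passage in Lin28a, against 49.7% and 49.0% of all genes.

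Condensin and cohesin (19 genes) had medians of -0.56, -0.27 and 0.38, with Smc4, a condensin subunit, at 24.9 FPKM in the P3 control and 41.4 with Lin28a (0.71). The centriole duplication genes (11) had -0.74, -0.45 and 0.42, led at P3 by Sass6, the cartwheel protein (0.85). The anaphase-promoting complex and separase (18) had -0.21, -0.15 and 0.21. In that list Espl1, the separase that cuts cohesin, was the one gene past 2-fold at P3, at 3.29 and 8.49 FPKM (1.15). Of its 18 genes, 14 were higher and 4 lower at P3, with 5 higher past 1.5-fold, against 5.45% of all genes. Among those 5 were Ube2c (0.71), Pttg1 (0.69) and Fbxo5 (0.69), near the members' median. The members and the lists named before this one had larger medians at P3, and no test of that difference was possible.

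Among 22 transcription regulators of the G2/M and E2F programmes the median was -0.48 with passage in the control, -0.43 in Lin28a and 0.17 for Lin28a at P3, where 18 of 22 were higher and 1 passed 1.5-fold. Of all genes, 48.5% were higher at P3 and 5.45% were higher past 1.5-fold. E2f1, which drives S phase genes, went from 14.2 to 4.81 FPKM in the control (-1.39) and from 18.6 to 4.86 with Lin28a (-1.74), so both cultures had nearly the same level at P3. Mybl2, B-Myb of the MuvB complex, went from 6.78 to 2.88 FPKM (-1.0) and from 10.6 to 2.95 (-1.56). Others were higher with Lin28a at P3, as Foxm1 was (10.8 FPKM in the control and 17.7 with Lin28a). E2f5 was at 31.6 and 48.2 FPKM (0.59), E2f6 at 25.4 and 36.5 (0.51), Tfdp2 at 12.6 and 18.1 (0.50) and E2f8 at 3.78 and 5.66 (0.48).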

How the data were processed

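Values came from 4 RNA-seq and 2 polysome-seq libraries, with 1 library per group, and small RNA libraries were not used here. The deposited RNA-seq tables hold FPKM per gene and the deposited polysome-seq tables hold RPKM per gene, as the authors normalized them. Libraries were built from poly(A)-selected RNA with a stranded kit, per the labels. Bowtie 1.0.0, TopHat2 2.0.6, Cufflinks 2.1.1 and the mm9 build are named, without their roles, per the submitters' processing notes.

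The total depth is unknown. From the steps between low values, depth relative to the P1 control was about 1.01 (P3 control), 1.15 (P1 Lin28a) and 1.03 (P3 Lin28a), and that of the Lin28a polysome library was 1.04 relative to its control. These rest on 49 to 193 low genes and are rough.

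Log2 ratios of value + 1 were computed for genes at 1 or more in at least 1 library of a comparison, or at 5 or more in all 4 P3 libraries for the polysome to RNA change, and counted past 2-fold and 1.5-fold. Members were read against all genes compared. All 37 members could be named, and from each other list up to 4 genes with the largest ratio. The members and lists were chosen with earlier results of these data known. No columns of other samples were present (0). RefSeq promoters were searched on both strands for the motifs given. The ratio and 2-fold count steps were tested on simulated data without noise, with changes past 2-fold planted in well-expressed genes only. That test did not cover the 1.5-fold counts or low genes. Alternatives were other pseudocounts, filters, centring, scaling to the 75th percentile and the 1.5-fold threshold. Python 3.11.15, numpy 2.4.6, pandas 2.3.3 and matplotlib 3.10.9 were used.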

Additional observations from a re-analysis of the deposited data

Results flagged for a closer look

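For 8 members the P3 level was below the P1 level in the control and above it in the Lin28a culture, with passage ratios that differed by more than 1.5-fold. Each culture has 1 library per passage, and the difference was not tested. The joint count was not made over all genes. Higher with passage in Lin28a by any amount were 11 of 37 members, against 49.0% of all genes. The log2 ratio with passage in Lin28a minus that in the control was 0.84 for Arhgef39, 0.81 for Cenpa, 0.74 for Nusap1 and 0.72 for Hmmr. It was 0.70 for Ccnb2, 0.63 for Prc1, 0.61 for Birc5 and 0.59 for Cdc20. Birc5 and Prc1 had ratios of only 0.04 and 0.02 in the Lin28a culture, and both changed side when the libraries were scaled to their 75th percentile. Arhgef39 and Ccnb2 had ratios of only -0.06 and -0.12 in the control, so they were nearly level with passage there.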

How the results depend on the processing

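No paired analysis was possible because each group has 1 library, and for the same reason no library could be left out. Scaling to the 75th percentile moved the median of all genes with passage in the control to -0.10. It gave 7 members lower past 2-fold and a member median of -0.85 there, and 6 lower with a median of -0.84 over 35 members for the polysome to RNA change. That change had 5 members lower past 2-fold with a pseudocount of 0.1, 3 with 0.5 and 5 when centred on the median of all genes. Shares of all genes lower past 2-fold were not counted under these settings. In the main run they were 8.14% (passage in the control, 4 members) and 0.0512% (polysome to RNA change, 1 member). At 1.5-fold, 26 members were lower with passage in the control, against 19.8% of all genes. For the polysome to RNA change 27 were lower, against 1.6%. Members higher were 1 with passage in Lin28a, against 18.2%, and 34 for Lin28a at P3, against 5.45%. For the difference between passage ratios 19 were higher, against 6.1%. No member ratio past 2-fold in the main run changed sign, and none could, as no member ratio moved by more than 0.12 under any alternative. Of single-member ratios, 51 moved by 0.1 or more and 206 by less under 75th-percentile scaling, by at most 0.12. Without counts, the counting error of low values is unknown.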
